A study of Arabidopsis thaliana and Zea mays with 822 samples.

Results

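FWA gRNA6 is a guide RNA of the CasΦ-2 nuclease (Cas12j) whose target lies in front of the FWA gene (AT4G25530) of Arabidopsis thaliana. All amplicon libraries that carried this guide were taken with their controls, which gave 37 of the 822 samples of the series: 29 libraries of transfected protoplasts in 12 conditions, and 8 controls. The material was leaf mesophyll protoplasts of plants aged 3 to 4 weeks, all in the Columbia-0 background, either fwa-4 or wild type (Col-0). In the largest experiment, fwa-4 protoplasts received ribonucleoproteins (RNPs) of the variants vCasΦ and nCasΦ or of unmodified WTCasΦ, with 4 replicates each and 3 controls that received an RNP with a scramble gRNA, 1 for each enzyme. A further RNP experiment with WTCasΦ alone had 2 libraries from fwa-4 and 2 from Col-0. In the plasmid experiments, constructs that expressed vCasΦ, nCasΦ or WTCasΦ with the guide were transfected into fwa-4 and, in a separate panel of the study, into Col-0, with 2 replicates for each enzyme and 1 control for each panel. A single WTCasΦ RNP library completes the set. Its GEO label gives wild type and the study's methods give fwa-4, so it entered no test between genotypes. Nothing in the sources used here says that replicates came from separate protoplast preparations, so the p-values below measure the spread between these libraries, which may be technical.

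CasΦ is a compact RNA-guided nuclease of phage origin that recognises a short T-rich motif (the PAM) beside its target and cuts the 2 DNA strands at staggered positions, far from the PAM. Plant cells mend such cuts mostly by end joining, which leaves small deletions. In vCasΦ the negatively charged tip of helix α7 was replaced by a flexible linker, and in nCasΦ several residues of that tip were changed to alanine. An RNP is the purified protein already bound to its guide, whereas a plasmid has to be transcribed in the cell first. FWA encodes a homeodomain transcription factor that delays flowering when it is active outside the endosperm. Its promoter is methylated and silent in adult tissue of wild-type plants, whereas in the epiallele fwa-4 the promoter has stably lost that methylation and FWA is expressed.

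The 20-base target was matched to the minus strand of chromosome 4 at chr4:13038208-13038227 (assembly TAIR10.1), with the PAM TTA at chr4:13038228-13038230. It lies 133 to 152 bases before the annotated start of FWA, which runs from 13038360 to 13042464 on the plus strand, and 0 annotated features overlap it. The nearest gene on the other side, SLK1 (AT4G25520), ends at 13036471, so the site is intergenic. Directly next to the last base of the target, on the side away from the PAM, lies a run of 12 adenines (chr4:13038196-13038207). The neighbouring guide FWA gRNA5 targets the same strand 6 bases nearer to FWA and shares 14 of its 20 bases with gRNA6. The same 44-base window (chr4:13038192-13038235, minus strand, 5′ to 3′) is shown for each feature, because the position of the run decides how the deletions can be read. Capitals mark the feature or, for a pattern, the bases it removes.
FWA gRNA6 site: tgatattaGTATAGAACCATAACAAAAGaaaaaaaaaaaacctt
FWA gRNA6 PAM: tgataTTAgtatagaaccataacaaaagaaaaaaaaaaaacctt
FWA gRNA5 site: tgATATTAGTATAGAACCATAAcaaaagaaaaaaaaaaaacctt
adenine run: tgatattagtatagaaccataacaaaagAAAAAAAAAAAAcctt
5-bp deletion from position 20: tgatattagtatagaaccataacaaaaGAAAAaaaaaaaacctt
11-bp deletion from position 15: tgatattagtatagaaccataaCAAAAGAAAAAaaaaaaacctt
9-bp deletion from position 15: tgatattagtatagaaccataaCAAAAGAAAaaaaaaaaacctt
10-bp deletion from position 15: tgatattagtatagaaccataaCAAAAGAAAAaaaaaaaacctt
5-bp deletion from position 15: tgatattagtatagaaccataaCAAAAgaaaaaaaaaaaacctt
24-bp deletion from position 11: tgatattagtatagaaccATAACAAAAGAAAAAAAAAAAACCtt
1-bp deletion in the run: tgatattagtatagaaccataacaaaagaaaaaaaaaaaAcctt
3-bp deletion in the run: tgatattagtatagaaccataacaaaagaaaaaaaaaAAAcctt

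Positions are counted from 1 at the target base next to the PAM to 20 at the last base of the target, and the run takes up positions 21 to 32. A read was counted as edited when its pattern held an indel that was 3 bp or longer and did not lie wholly in the run, and when at least 100 reads of the library had that pattern. The editing efficiency is the percentage of such reads among all reads of the library. The edited libraries held 1501070 to 3079509 reads each, so 100 reads were 0.00325% to 0.00666% of a library. The 5 controls counted in the same frame had an efficiency of 0. The study set its rule for edited reads after it had assessed its control samples, so this value is no independent check of the background. At any read count the 5 controls held 300 to 481 reads with such indels, and no single pattern passed 47 reads. The 3 controls of the single RNP library and of the RNP experiment on both genotypes were counted in the frame of another guide, FWA gRNA4, which does not cover the run, so they show nothing of indels there and are not used as a background for gRNA6.

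Edited reads were found in 26 of the 29 libraries. Together these held 1578456 edited reads in 284 distinct patterns, of which 238 were single deletions, and 99.0% of the edited reads belonged to single deletions. Insertions were rare, with 9301 reads in 36 patterns. Of the 284 patterns, 140 were found in 1 library and 40 in 10 or more.

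In the RNP experiment with 3 enzymes, the efficiency in fwa-4 protoplasts was highest with nCasΦ and lowest with WTCasΦ. The 4 vCasΦ libraries reached 2.17%, 1.84%, 5.59% and 5.87% (3.87% ± 2.16, SD, n = 4). With nCasΦ the values were 4.02%, 8.78%, 9.68% and 10.5% (8.24% ± 2.89, SD, n = 4), and with WTCasΦ 1.36%, 1.63%, 1.85% and 1.72% (1.64% ± 0.206, SD, n = 4). Every nCasΦ library was above every WTCasΦ library, whereas the vCasΦ replicate with 1.84% fell just below the highest WTCasΦ replicate. The difference of nCasΦ from WTCasΦ was 6.60 percentage points, with p = 0.0286 in a two-sided exact permutation test over libraries, the smallest p that 4 against 4 libraries allow, and an adjusted p of 0.0857 over the 3 enzyme pairs. The difference of vCasΦ from WTCasΦ was 2.23 points (exact permutation p = 0.0571, adjusted 0.0857), and that of vCasΦ from nCasΦ was -4.37 points (exact permutation p = 0.0857, adjusted 0.0857). No enzyme pair passed 0.05 after adjustment, and these calls depended on the settings. With patterns that touch the adenine run left out, all 3 pairs were called (adjusted exact permutation p = 0.0286 each). That setting leaves out most of the edited reads, since 88.0% of the single-deletion reads of these libraries touched the run, and its differences were much smaller. With indels of at least 1 bp counted, vCasΦ and nCasΦ each differed from WTCasΦ (adjusted exact permutation p = 0.0429 each). The 1-bp setting also counts indels shorter than 3 bp, which the study's methods report in control samples. Leaving out 1 library also changed calls: without nCasΦ replicate 1, the lowest of its group, nCasΦ differed from WTCasΦ by 8.00 points and vCasΦ from nCasΦ by -5.77 points, and without vCasΦ replicate 2, vCasΦ differed from WTCasΦ by 2.90 points, each with an adjusted exact permutation p of 0.0429. Sampling of reads contributed little to this spread, since the widest 95% Wilson interval of these 12 libraries ran from 10.4% to 10.5% at its rounded bounds. The reads come from PCR with no molecular identifiers, hence intervals and floors describe counting error alone.

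Replicates 1 and 2 of this experiment differed from replicates 3 and 4 in several measures, although the labels name no batch. Reads that differed from the reference by single-nucleotide variants alone made up 1.73% to 2.13% in replicates 1 and 2 of the 3 enzymes and 0.821% to 1.06% in replicates 3 and 4. Within replicates 1 and 2 the efficiency with nCasΦ exceeded that with WTCasΦ by 4.91 points, and within replicates 3 and 4 by 8.29 points. For vCasΦ the difference from WTCasΦ was 0.510 points within replicates 1 and 2 and 3.95 points within replicates 3 and 4, so most of the mean difference between vCasΦ and WTCasΦ came from replicates 3 and 4. With the replicate pairs 1 and 2 and 3 and 4 taken as strata, all 15 results tested kept their direction and their side of the threshold for a call. For a pair of enzymes that setting could make no call. With 4 libraries against 4 in 2 strata, the smallest p of an exact permutation test is 0.0556. Why the replicate pairs differed was not tested.

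With plasmids the variants again stood above WTCasΦ. In fwa-4 protoplasts the efficiency was 0.675% and 2.39% with vCasΦ, 1.12% and 2.16% with nCasΦ, and 0.147% and 0.207% with WTCasΦ. Neither variant overlapped with WTCasΦ, whereas the vCasΦ and nCasΦ libraries overlapped. The differences from WTCasΦ were 1.35 points for vCasΦ and 1.46 points for nCasΦ, and vCasΦ differed from nCasΦ by -0.108 points. With 2 libraries against 2, the smallest p an exact permutation test can give is 0.333, and both differences from WTCasΦ reached that value, with p = 1 for vCasΦ against nCasΦ. The 2 replicates of vCasΦ were further apart from each other than the means of vCasΦ and nCasΦ.

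In wild-type Col-0 protoplasts, where the FWA promoter is methylated, the same plasmids gave few edited reads. The efficiency was 0.149% and 0.0900% with vCasΦ, 0.0630% and 0.0639% with nCasΦ, and 0 in both WTCasΦ libraries. For these WTCasΦ libraries a count of 0 allows 0.000146% and 0.000135% (3 reads of the total), but because of the read minimum an efficiency of 0 covers any pattern below 0.00488% and 0.00449% of the reads. At any read count, reads with such indels made up 0.0145% and 0.0175% of the WTCasΦ libraries, against 0.0161% in the Col-0 control. The differences between enzymes were 0.120 points for vCasΦ against WTCasΦ, 0.0634 points for nCasΦ against WTCasΦ and 0.0563 points for vCasΦ against nCasΦ. No pair of enzymes overlapped, and each exact permutation p was 0.333, the smallest possible.

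Efficiency was higher in fwa-4 than in Col-0 with every enzyme delivered by plasmid. Averaged over the 3 enzymes it was 1.12% in fwa-4 and 0.0611% in Col-0 (n = 6 libraries each). The difference was 1.41 points with vCasΦ, 1.58 points with nCasΦ and 0.177 points with WTCasΦ, and with each enzyme both fwa-4 libraries were above both Col-0 libraries. The mean difference was 1.05 points, with p = 0.00926 in a two-sided exact permutation test with labels permuted within each enzyme, the smallest p this design can give. Without replicate 1 or replicate 2 of vCasΦ in Col-0 the p was 0.0648. The genotypes were in different panels, so genotype and experiment cannot be told apart here. WTCasΦ RNPs were tested on both genotypes in 1 panel. They gave 0.890% and 0.701% in fwa-4, and 0 and 0.00852% in Col-0 (95% Wilson interval of that library 0.00726% to 0.01001%). This difference of 0.791 points had the smallest p that 2 against 2 libraries allow (exact permutation p = 0.333). The 148 edited reads of the Col-0 library all had the same pattern, the 11-bp deletion from position 15. The single RNP library with conflicting genotype labels had an efficiency of 0.807% (95% Wilson interval 0.797% to 0.818%) in 41 patterns, a value inside the range of the fwa-4 RNP libraries of that enzyme and above both Col-0 libraries. It came from another panel, and its genotype was not tested.

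The deletions of gRNA6 had a narrow set of starts and a wide set of ends, and most ran from the last bases of the target into the adenine run. Over the 12 RNP libraries of the experiment with 3 enzymes, 47.4% of the single-deletion reads started at position 15 (range 42.9% to 50.9%), 24.2% at position 20 (18.0% to 29.2%), 11.3% at position 12 (6.87% to 19.4%) and 3.93% at position 11. No other start within the target exceeded 3.23% on average. The bases at positions 15, 20 and 12 are C, G and T. The C and the G each follow a stretch of adenines and the T follows a lone adenine. Many deletions that begin with these bases can also be written with an earlier start.

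Every single-deletion read (100%) was placed at the equivalent position farthest from the PAM. Of the 319 distinct deletions of 3 to 30 bp that can be written over the site, 51.7% have more than 1 placement and 20.1% can be moved by at least 2 bases. Weighted by reads, deletions that could be moved by at least 2 bases made up 78.8% of the single-deletion reads of the 12 RNP libraries (range 71.2% to 83.6%). When each deletion was written at the placement nearest to the PAM, the leading starts became positions 13 (47.5%), 16 (20.5%) and 11 (11.0%). The mean start was then position 12.8, against 15.1 as deposited. The starts are thus known only to within these few bases, and the values below use the placement in the files unless stated.

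At the other end, 77.8% of the single-deletion reads of these 12 libraries stopped inside the run (range 73.7% to 82.4%), and 63.3% within its first 5 bases. A further 10.1% ended past the run (2.94% to 16.3%) and 11.5% before position 20 (7.95% to 17.1%). The base removed most often was the G at position 20, the last base of the target, which was missing from 88.1% of the single-deletion reads (82.6% to 91.7%). Toward the PAM, 73.3% of the reads lacked the C at position 15 but only 25.9% the base before it. Into the run, the share that lacked a base was 61.8% at position 24, 24.4% at position 26 and 10.7% at its last base, position 32. The first 8 bases of the target, those next to the PAM, were each lost in at most 3.22% of the reads on average. Reaching the run depended in part on the placement, since the share of deletions that removed at least 1 run base was 88.0% as deposited (81.9% to 91.6%) and 66.0% at the placement nearest to the PAM (58.8% to 71.0%).

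Deletion sizes were spread from 3 to 52 bp with a median of 9 or 10 bp in every one of these libraries. The most frequent sizes were 5 bp (15.4% of single-deletion reads, range 12.6% to 20.0%), 11 bp (10.4%), 9 bp (9.20%) and 10 bp (8.71%), and 24 bp stood out among the long ones with 5.17% (0.867% to 9.55%). Deletions of 3 to 7 bp took 34.6% of the reads, those of 8 to 12 bp 40.4%, those of 13 to 19 bp 13.7% and those of at least 20 bp 11.3%. The share of at least 20 bp was 4.90% to 11.0% in replicates 1 and 2 and 10.7% to 17.0% in replicates 3 and 4, and the mean size was 9.40 to 10.9 bp in replicates 1 and 2 and 11.0 to 12.2 bp in replicates 3 and 4. The groups of replicates did not overlap in mean size, whichever the enzyme.

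The patterns were ranked by their reads in each condition and the leading 3 of each were named. They are given here by size and first position, as drawn on the window above. The 5-bp deletion from position 20 had the most reads in all, 156435 or 9.91% of the edited reads of the 29 gRNA6 libraries, and was found in 23 libraries. It removes the G and 4 adenines and leaves an unbroken stretch of 12 adenines at the junction. It has 5 equivalent placements, and the one nearest to the PAM removes positions 16 to 20 and no base of the run. With RNPs it took 12.7%, 9.61%, 9.68% and 8.57% of the edited reads with vCasΦ, 11.4%, 13.0%, 9.57% and 10.1% with nCasΦ, and 7.54%, 7.58%, 11.1% and 7.53% with WTCasΦ, so the enzymes overlapped.

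The next patterns all begin with the C at position 15 and end at successive bases of the run. The 11-bp deletion from position 15, which removes 5 run bases, was found in 24 libraries, more than any other named pattern, with 146037 reads (9.25%). It took 11.5%, 6.08%, 8.55% and 8.22% of the edited reads with vCasΦ RNPs, 6.35%, 9.13%, 9.33% and 9.94% with nCasΦ RNPs, and 11.7%, 12.1%, 6.08% and 6.47% with WTCasΦ RNPs. The 9-bp deletion had 134476 reads (8.52%) in 23 libraries, the 10-bp deletion 118457 reads (7.50%) in 22 and the 8-bp deletion 84038 reads (5.32%) in 21. Each of them can be moved by 2 bases toward the PAM. In the same family, the 5-bp deletion from position 15, with 74724 reads (4.73%) in 21 libraries, removes only target bases and no base of the run. The position shared by the family is its start, and the members differ in how far they reach to the other side. At their junctions the 8-, 9-, 10- and 11-bp deletions leave 12, 11, 10 and 9 adenines. An adenine gained or lost there would turn such a deletion into its neighbour in size. How far this blurs the ends, sizes and pattern counts was not tested.

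The 24-bp deletion from position 11 was singled out after its values were seen. It removes the whole run with the bases on both sides and joins at a short repeat, because the 4 bases AACC stand at positions 7 to 10 and again at 31 to 34, so it can be moved by 4 bases. It had 50365 reads (3.19% of all edited reads) in 17 libraries. With RNPs it took 1.62%, 0.550%, 3.92% and 4.80% of the edited reads with vCasΦ, 1.48%, 1.48%, 3.25% and 4.51% with nCasΦ, and 2.25%, 3.60%, 4.96% and 5.12% with WTCasΦ. In every enzyme replicates 3 and 4 were above replicates 1 and 2. Among plasmid libraries it passed 100 reads only with vCasΦ in fwa-4, where it took 14.4% and 3.77% of the 14041 and 57251 edited reads and was the leading pattern of replicate 1. The nCasΦ plasmid libraries in fwa-4 held 1 and 2 reads of it, among 25185 and 52028 edited reads in all, and the 5 controls in the frame held 0 to 3 reads.

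Delivered as RNPs, the enzymes shared the patterns that held most of their edited reads. A total of 164 patterns was counted with vCasΦ, of which 33 were in all 4 libraries, 206 with nCasΦ, of which 49 were in all 4, and 103 with WTCasΦ, of which 23 were in all 4. The 76 patterns shared by vCasΦ and WTCasΦ were 46.3% of the vCasΦ patterns and 73.8% of the WTCasΦ patterns, and held 93.3% of the edited reads with vCasΦ and 95.2% with WTCasΦ. The 88 shared by nCasΦ and WTCasΦ were 42.7% of the nCasΦ patterns and 85.4% of the WTCasΦ patterns, with 93.2% of the reads of nCasΦ and 98.0% of those of WTCasΦ. The 109 shared by vCasΦ and nCasΦ were 66.5% of the vCasΦ patterns and 52.9% of the nCasΦ patterns, with 96.5% of the reads of vCasΦ and 95.1% of those of nCasΦ. The number of patterns moved with the number of edited reads that could pass the 100-read minimum, so the pattern counts do not compare the enzymes at equal depth. Between single libraries, any pair of replicates of 1 enzyme in this experiment shared patterns that held 77.6% to 97.1% of the edited reads. The enzyme sets above pool 4 libraries each, so their shares are not on the same footing as those between replicates.

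The mean size of the single deletions was 11.1 ± 1.03 bp with vCasΦ, 10.8 ± 1.14 bp with nCasΦ and 10.9 ± 1.14 bp with WTCasΦ (SD, n = 4 each). The mean start was position 14.8 ± 0.243 with vCasΦ, 15.5 ± 0.310 with nCasΦ and 15.0 ± 0.346 with WTCasΦ, and the share that reached the run was 87.0% ± 3.66 with vCasΦ, 88.9% ± 3.18 with nCasΦ and 88.1% ± 1.94 with WTCasΦ (SD, n = 4 each). None of the 9 comparisons between enzymes passed 0.05 after adjustment. The nearest was the mean start, which was lower with vCasΦ than with nCasΦ, with all 4 vCasΦ libraries below all 4 nCasΦ libraries (difference -0.639 bases, exact permutation p = 0.0286, the smallest possible, adjusted p = 0.257). The starts behind it are given as a description. Position 12 had 11.5% to 13.2% of the reads with vCasΦ, 6.87% to 9.70% with nCasΦ and 10.1% to 19.4% with WTCasΦ, and position 20 had 19.4% to 24.2% with vCasΦ, 26.4% to 29.2% with nCasΦ and 18.0% to 28.9% with WTCasΦ.

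In fwa-4 the plasmid libraries held 21 and 37 patterns with vCasΦ, 18 and 28 with nCasΦ, and 6 and 9 with WTCasΦ. The RNP libraries of the experiment with 3 enzymes held 42 to 137, with more edited reads to pass the minimum, and the WTCasΦ RNP libraries of the experiment on both genotypes held 34 and 24 in fwa-4. The mean size was 10.9 bp with plasmids and 10.9 bp with RNPs (difference -0.0403 bp, exact permutation p = 0.952, adjusted 0.972), and 87.9% of the plasmid reads and 88.0% of the RNP reads reached the run (difference -0.109 points, exact permutation p = 0.972, adjusted 0.972). The mean start was position 14.3 with plasmids and 15.1 with RNPs. On average it was lower with plasmids for all 3 enzymes, with a difference of -0.776 bases for vCasΦ, -0.531 for nCasΦ and -1.002 for WTCasΦ. Only with vCasΦ were both plasmid libraries below all RNP libraries. With WTCasΦ they lay at 16.0 and 12.1, on either side of the RNP range of 14.7 to 15.4. With nCasΦ they lay at 15.3 and 14.6, against 15.2 to 15.8 with RNPs. The mean difference of -0.770 did not pass the test (exact permutation p = 0.0557, adjusted 0.167; 6 plasmid and 12 RNP libraries). That call rested on the libraries used, since without replicate 1 of the WTCasΦ plasmid the difference was -1.43 with an adjusted exact permutation p of 0.00800. With indels of at least 1 bp counted, plasmids differed from RNPs in all 3 measures, with -2.14 bp for size (adjusted exact permutation p = 0.0382), -18.9 points for run reach and 3.80 bases for the start, which turned its direction (adjusted exact permutation p = 0.00756 each). The 1-bp setting also counts indels shorter than 3 bp, which the study's methods report in control samples. How far such background entered these differences was not tested. Plasmids and RNPs came from different experiments, so delivery and experiment cannot be told apart.

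The leading patterns of the plasmid libraries are given by replicate. In fwa-4 the leading pattern of WTCasΦ plasmids was the 9-bp deletion from position 15, with 35.7% and 21.3% of the edited reads. In these plasmid libraries the 8-bp deletion from position 15 took 22.8% of the edited reads in replicate 1 and had 23 reads in replicate 2. The 11-bp deletion from position 15 had 10 and 8 reads there, below the minimum. With WTCasΦ RNPs of the experiment with 3 enzymes it led in the sum of the replicates, but by library only in replicates 1 and 2. In the fwa-4 RNP libraries of the experiment on both genotypes it ranked below the 5-bp deletion from position 20 and the 9-bp deletion from position 15. With nCasΦ the leading patterns were the 9-bp (10.6% and 12.5%), 11-bp (9.83% and 12.1%) and 5-bp (16.4% and 7.39%) deletions from position 15. With vCasΦ they were the 11-bp (8.33% and 12.8%) and 9-bp (1.13% and 12.1%) deletions from position 15 and the 5-bp deletion from position 20 (5.85% and 8.71%). Patterns shared by the 2 replicates held 96.1% and 72.1% of the edited reads with vCasΦ, 81.5% and 66.7% with nCasΦ, and 67.4% and 36.5% with WTCasΦ.

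The Col-0 libraries held few patterns, and these were among the leading ones of fwa-4 or were found in a single replicate. With vCasΦ plasmids 6 and 7 patterns were counted, with nCasΦ plasmids 4 and 6, and with WTCasΦ none. Of 12 vCasΦ patterns and 8 nCasΦ patterns, 2 were shared, the 11-bp and the 9-bp deletions from position 15. The 11-bp deletion was the only pattern found in both replicates of both variants: it took 31.4% and 13.2% of the edited reads with vCasΦ and 32.0% and 15.6% with nCasΦ, and it was also the only pattern of the WTCasΦ RNPs in Col-0. The 5-bp deletion from position 20 had 0 and 7 reads with vCasΦ, whereas it took 42.1% and 21.0% with nCasΦ. Other leading patterns came from 1 replicate each. A 25-bp deletion from position 18 that removes the whole run took 25.7% (340 reads) in replicate 2 of nCasΦ, a 30-bp deletion from position 12 took 24.7% (611 reads) in replicate 2 of vCasΦ, and the 5-bp deletion from position 15 took 24.0% (594 reads) in that same replicate. Both long deletions also passed 100 reads in fwa-4, the 25-bp deletion in 10 libraries and the 30-bp deletion in 4. With vCasΦ and nCasΦ plasmids together the mean size was 11.3 bp in fwa-4 and 11.5 bp in Col-0, a difference of -0.180 bp (exact permutation p = 0.944; the smallest p this design can give is 0.0556).

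Against its neighbour gRNA5, gRNA6 differed in where its deletions lay, with the same 3 enzymes, the same kind of protoplasts and 12 RNP libraries each. The mean size was 10.9 bp with gRNA6 and 9.30 bp with gRNA5 (difference 1.62 bp, exact permutation p = 0.000122, adjusted 0.000122), and the mean start, each counted from its own PAM, was position 15.1 with gRNA6 and 15.8 with gRNA5 (difference -0.726, exact permutation p = 1.17e-05, adjusted 1.75e-05). The run was reached by 88.0% of the single-deletion reads with gRNA6 and by 15.0% with gRNA5 (difference 73.0 points, exact permutation p = 5.83e-06, the smallest possible, adjusted 1.75e-05). With each of the 3 enzymes all 4 gRNA6 libraries were above all 4 gRNA5 libraries in that share. The run starts directly after position 20 of gRNA6 and 6 bases farther from position 20 of gRNA5, so a gRNA5 deletion has to extend 6 bases farther from its PAM to touch it. The p-value for run reach therefore does not test the guides apart from where the run lies. Leaving out indels wholly in the run also removes different positions, counted from the PAM, for each guide. How far that entered the differences in size and start was not tested. With indels of at least 1 bp counted, the size difference was 0.816 bp and no longer called (adjusted exact permutation p = 0.0975), and the difference in start turned to 0.873 bases (adjusted exact permutation p = 0.0774). That setting also counts indels shorter than 3 bp, which the study's methods report in control samples. The leading pattern of gRNA5 was a 5-bp deletion that held 19.0% to 26.8% of the edited reads of a library, a larger share than any pattern reached with gRNA6 in the same experiment, where the leading pattern of a library held 8.57% to 13.0%. Deletions of 3 to 7 bp took 34.6% of the reads with gRNA6 and 53.2% with gRNA5.

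Indels that lay wholly in the adenine run were kept apart from the edited reads and are set beside the controls. A deletion of 1 adenine was the leading such pattern in all 12 conditions and in every control counted in the frame, with 10.8% to 12.0% of all reads of a condition. Summed over all run indels of 1 bp, deletions of 1 adenine took 10.2% to 12.4% of the reads of the edited libraries and 11.3% to 12.0% of the reads of the 5 controls. Insertions of 1 base at the run, whose identity the pattern names do not give, took 4.72% to 7.51% in edited libraries and 4.98% to 5.71% in controls. Run indels of any size made up 16.4% to 22.5% of the reads in edited libraries and 17.7% to 19.0% in controls. In the RNP experiment with 3 enzymes the means were 18.8% with gRNA6 and 18.5% in the scramble controls, a difference of 0.295 points (exact permutation p = 0.857, adjusted 0.857). The 3 highest edited libraries were WTCasΦ replicates 1 and 2 with 22.5% and 21.3% and vCasΦ replicate 1 with 20.7%.

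Longer run indels were rare in edited libraries and controls alike. Those of at least 3 bp took 0.0546% to 0.175% of the reads in edited libraries and 0.0626% to 0.0836% in controls, and the leading one was the deletion of 3 adenines in 9 conditions and an insertion of 3 bases in 3. In the RNP experiment with 3 enzymes their mean was 0.109% with gRNA6 and 0.0725% in the scramble controls, a difference of 0.0368 points that did not pass the test (exact permutation p = 0.103, adjusted 0.207). By enzyme, the 4 libraries lay at 0.132%, 0.0663%, 0.0932% and 0.0932% with vCasΦ, 0.0841%, 0.101%, 0.139% and 0.152% with nCasΦ, and 0.175%, 0.132%, 0.0665% and 0.0767% with WTCasΦ, against 0.0666%, 0.0674% and 0.0836% in the controls. All nCasΦ libraries were above all controls, while vCasΦ and WTCasΦ each had libraries inside the range of the controls. Some edited reads held a run indel as well: among reads of these 12 libraries with 1 deletion of at least 3 bp that ended before position 20, at any read count, 4.95% to 10.9% carried a further indel in the run. That is below the share of all reads of these libraries with indels wholly in the run, 16.4% to 22.5%.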

How the data were processed

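Amplicons over the FWA gRNA6 site were sequenced from Arabidopsis protoplasts after a pair of PCR rounds. After Trim Galore and BWA 0.7.17, the authors tabulated mutation patterns with CrispRVariants. The deposited files hold the number of reads of each pattern, as raw counts. Each pattern is named by its start and length, and an indel in a repeat is written at only 1 of its equivalent placements. The submitters' notes name TAIR10, and sites were matched here to TAIR10.1. Patterns labelled Other, which have no position, were not counted as edits. Of the files of the series, 760 belong to other guides or targets and were not used.

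Efficiencies and deletion measures were computed with SciPy 1.17.1 and NumPy 2.4.6 in Python 3.11.15. Deletion measures are weighted by reads over edited patterns with exactly 1 deletion. Edited patterns had at least 100 reads and an indel of at least 3 bp that was not wholly in the adenine run. Libraries were grouped by their titles and labels. Groups were compared by two-sided exact permutation tests of the difference of means over libraries, with labels permuted within each enzyme where several enzymes entered, and p-values were adjusted by Benjamini-Hochberg within each family of comparisons and called at 0.05. Intervals are 95% Wilson intervals. The tests were tested on simulated data. The named patterns are the leading 3 of each condition and the leading pattern of the run, and the 24-bp deletion from position 11 was added after its values were seen. The guide, the patterns, the comparisons and the tests were chosen with earlier results of these data known. In 50 pairs of replicates the counts always differed by more than sampling noise (lowest chi-square per degree of freedom 1.84), so none was merged. Read minimum, indel size, scaling, treatment of the run, placement of deletions, replicate block and the libraries left out were varied, and the placement of deletions and the replicate pairs were added after seeing the data. Depth was 1501070 to 3079509 reads in the edited libraries and 1557079 to 2511211 in the controls.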

Additional observations from a re-analysis of the deposited data

Results flagged for a closer look

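In the RNP experiment with 3 enzymes, vCasΦ replicate 1 stood apart from the other vCasΦ replicates in adenine-run indels of any size, with 20.7% of its reads against 18.0% to 18.2% in the other replicates, and against 18.0% to 19.0% in the scramble controls. Its gap to the nearest replicate was 0.920 of the range of the group, past Dixon's limit for 4 samples. Chance alone puts about 1 in 20 groups past this limit, and 1 of 18 was past it here. The same library had an efficiency of 2.17%, between those of the other vCasΦ replicates.

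Reads that the authors' software put under Other, which carry no position and enter no comparison above, were more frequent in edited libraries than in controls. The highest share among the 5 controls in the gRNA6 frame was 0.000680%, and 23 of the 29 edited libraries were above it. In fwa-4 RNP libraries of the experiment with 3 enzymes the mean share was 0.115% with vCasΦ, 0.264% with nCasΦ and 0.0677% with WTCasΦ (n = 4 each), and single libraries ran from 0.0257% to 0.431%. With plasmids in fwa-4 it was 0.0849% with vCasΦ and 0.0358% with nCasΦ, and with vCasΦ plasmids in Col-0 0.0247% (n = 2 each). The WTCasΦ RNP libraries in fwa-4 of the experiment on both genotypes averaged 0.0263% (n = 2), and the single RNP library with conflicting genotype labels had 0.0331%. What these reads hold was not tested.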

How the results depend on the processing

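Every result was recomputed under other settings, apart from leaving out 1 library at a time, which gave 324 values. Of these, 285 kept their direction and side of the threshold, 1 was no longer called, 11 became called and 27 turned their direction. The 324 include values from replicates 1 and 2 alone and from replicates 3 and 4 alone (15 each). They also include the replicate block, which used only replicate numbers present in both groups. Differences are given as in the report, in percentage points for efficiencies and shares, in bp for sizes and in bases for starts. With indels of at least 1 bp, a setting that also counts the indels below 3 bp that the study's methods report in controls, more changed. The efficiency of vCasΦ and nCasΦ against WTCasΦ RNPs was called (2.22 and 6.61, adjusted exact permutation p = 0.0429 each). The shapes changed most there: size nCasΦ against WTCasΦ 0.858, size vCasΦ against nCasΦ -0.200, start nCasΦ against WTCasΦ -1.45, start vCasΦ against nCasΦ 0.412, run reach vCasΦ against WTCasΦ 2.59; plasmid against RNP -2.14 for size and -18.9 for run reach, both now called, and 3.80 for start; gRNA6 against gRNA5 0.816 for size, no longer called, and 0.873 for start; and size fwa-4 against Col-0 5.04. With patterns that touch the run left out, all 3 enzyme pairs were called (0.250, 0.653 and -0.403 for vCasΦ against WTCasΦ, nCasΦ against WTCasΦ and vCasΦ against nCasΦ, adjusted exact permutation p = 0.0286 each), and the direction turned for size and start of nCasΦ against WTCasΦ (0.275 and -0.225), size of gRNA6 against gRNA5 (-1.82, where the setting itself limits gRNA6 deletions to shorter ones) and start of plasmid against RNP (0.328). With patterns of at least 0.01% of the library, size was 0.210 for nCasΦ against WTCasΦ, -0.0618 for vCasΦ against nCasΦ and 0.382 for plasmid against RNP, whose start became called (-1.05, adjusted exact permutation p = 0.0444). Scaled to the fewest edited reads, size was -0.239 for vCasΦ against WTCasΦ and 1.60 for plasmid against RNP, and the start of plasmid against RNP was called (-1.59). Size of fwa-4 against Col-0 was 2.50 with a minimum of 10 reads and 0.207 with indels of at least 5 bp. With compound patterns included, run reach of plasmid against RNP was 0.0121. Patterns that touch the run, in place of those wholly in it, were more frequent in gRNA6 RNP libraries than in controls by 4.12 for indels of at least 3 bp and 4.45 for any size, as edits themselves then count. At the placement nearest to the PAM, run reach was -1.52 for nCasΦ against WTCasΦ and 0.588 for plasmid against RNP. Within replicates 1 and 2, run reach of nCasΦ against WTCasΦ was -0.482, and within replicates 3 and 4 size of nCasΦ against WTCasΦ was 0.183 and run reach of vCasΦ against WTCasΦ 0.462. Except for the choices whose construction shows it, the cause of these changes was not tested. Same-numbered replicates correlated at -0.0690 to 0.289 in the RNP experiment, above 0.1 in 3 of 12 pairs, so the numbers were not taken as pairs. With the replicate number as a block no call changed, but labels then move only within a replicate number. For a pair of enzymes that leaves too few arrangements for a call at 0.05. The efficiency of fwa-4 against Col-0 plasmids had an exact permutation p of 0.0313 with this block. Plasmid against RNP turned to 0.808 for size and 1.97 for run reach. When 1 library was left out, the difference ranged, for efficiency with RNPs, from 1.56 to 2.90 for vCasΦ against WTCasΦ, 5.86 to 8.00 for nCasΦ against WTCasΦ and -5.77 to -3.63 for vCasΦ against nCasΦ; with plasmids, from -0.963 to 0.748 for vCasΦ against nCasΦ in fwa-4 and 0.769 to 1.34 for fwa-4 against Col-0. For size it ranged from -0.272 to 0.658 (vCasΦ against WTCasΦ), -0.561 to 0.369 (nCasΦ against WTCasΦ), -0.0511 to 0.708 (vCasΦ against nCasΦ), -0.685 to 0.604 (plasmid against RNP) and -1.39 to 1.03 (fwa-4 against Col-0). For run reach it ranged from -1.93 to 0.694 (vCasΦ against WTCasΦ), -0.0873 to 2.22 (nCasΦ against WTCasΦ) and -2.02 to 1.81 (plasmid against RNP), for the start of plasmid against RNP from -1.43 to -0.110, and for run indels of any size from -0.0393 to 0.543. An efficiency of 0 covers patterns under 100 reads.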
